A study of Mus musculus with 18 samples.

Results

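The 44 genes described here cover the transcription factor PPAR-alpha, encoded by *Ppara*, and the hepatic enzymes of fatty acid activation, mitochondrial and peroxisomal beta-oxidation, omega-oxidation and ketone body formation. They were chosen by name and role, without a measured value in the rule, but with earlier results of these data known. They are 44 of the 23352 gene symbols in the deposited tables. The data are RNA-seq profiles of liver from 9 wild-type and 9 *Gpr180*KO mice, 1 library per mouse. Both genotypes were male C57BL/6J mice, 20 weeks old, that had been fed a high-fat diet (HFD) for 12 weeks. *Gpr180* encodes G protein-coupled receptor 180, and its knockout was a homozygous whole-body deletion of an exon made with CRISPR, so an effect of its loss in liver cells and one of its loss in other organs cannot be told apart. The comparison asks how liver expression differed between the genotypes under HFD. Values are mapped fragments scaled for transcript length and library size (FPKM), which allow levels of different genes to be set side by side. All 44 genes had a usable estimate in every library and passed the minimum mean of 1 FPKM, as did 10835 genes in total. Mean levels over the 18 livers ran from 5.43 FPKM for *Acot3* to 1203 FPKM for *Acaa1b*.

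PPAR-alpha is a nuclear receptor that binds fatty acids and, as a dimer with RXR, switches on genes of fatty acid use in the liver, above all during fasting. Long-chain fatty acids are first activated by acyl-CoA synthetases, passed into mitochondria by the carnitine shuttle, and shortened there in repeated rounds of beta-oxidation. Very long and branched chains are shortened in peroxisomes, CYP4A enzymes oxidise the far end of the chain, and the acetyl-CoA that the liver does not burn leaves it as ketone bodies.

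PPAR-alpha and RXR bind direct repeats of a half-site, AGGTCA, separated by 1 base, so the promoters of the genes were searched for AGGTCANAGGTCA on both strands, with at most 2 of the 12 fixed positions changed. The RefSeq table for GRCm38.p6 gave the 250 bases before and 50 after the start site for 36 of the 44 genes. *Acaa2*, *Hsd17b4*, *Acat1*, *Crat*, *Decr1*, *Cyp4a10*, *Cyp4a14* and *Vnn1* had no entry in it. No promoter of the 36 genes held the exact motif. With at most 2 changes it was found in 6 of the 36 genes (16.7%), namely *Acot12*, *Acot4*, *Acox2*, *Echs1*, *Etfa* and *Slc25a20*, whereas 4% of the 8048 tested genes with a promoter held it. Only *Acot12* came within 1 change. The half-site alone was in 20% of the promoters of the 36 genes and in 16.3% of all promoters in the table. The matches of *Acox2* and *Slc25a20* began 9 and 6 bases after the start. The 250 bases before the start are printed for the other 4, with the match in capitals, and for *Acsl3*, the gene among the 44 that passed the test between genotypes and whose closest stretch had 5 changes, so that nothing is capitalised. Coordinates are GRCm38 and the sequence reads 5′ to 3′ on the strand of the gene: *Acot12*, chr13:91741271-91741520 on the plus strand; *Acot4*, chr12:84038129-84038378 on the plus strand; *Echs1*, chr7:140116422-140116671 on the minus strand; *Etfa*, chr9:55512244-55512493 on the minus strand; *Acsl3*, chr1:78657575-78657824 on the plus strand.
Acot12: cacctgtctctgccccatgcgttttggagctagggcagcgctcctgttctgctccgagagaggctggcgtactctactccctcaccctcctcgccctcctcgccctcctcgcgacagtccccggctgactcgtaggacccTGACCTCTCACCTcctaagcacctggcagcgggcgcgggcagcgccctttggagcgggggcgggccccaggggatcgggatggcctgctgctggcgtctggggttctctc
Acot4: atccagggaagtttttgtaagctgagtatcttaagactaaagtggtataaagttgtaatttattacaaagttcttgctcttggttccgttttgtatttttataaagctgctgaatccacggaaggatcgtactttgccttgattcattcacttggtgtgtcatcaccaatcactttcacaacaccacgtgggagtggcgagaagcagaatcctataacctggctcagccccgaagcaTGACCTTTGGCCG
Echs1: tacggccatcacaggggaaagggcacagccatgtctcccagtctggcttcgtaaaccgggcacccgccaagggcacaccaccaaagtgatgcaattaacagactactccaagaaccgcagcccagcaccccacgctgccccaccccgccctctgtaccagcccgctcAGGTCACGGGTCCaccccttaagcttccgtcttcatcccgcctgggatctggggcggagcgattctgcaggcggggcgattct
Etfa: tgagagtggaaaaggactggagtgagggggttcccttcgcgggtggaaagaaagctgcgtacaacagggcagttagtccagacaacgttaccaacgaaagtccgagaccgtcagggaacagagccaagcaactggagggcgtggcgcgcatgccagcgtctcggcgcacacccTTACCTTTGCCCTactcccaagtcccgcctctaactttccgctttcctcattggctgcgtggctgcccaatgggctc
Acsl3: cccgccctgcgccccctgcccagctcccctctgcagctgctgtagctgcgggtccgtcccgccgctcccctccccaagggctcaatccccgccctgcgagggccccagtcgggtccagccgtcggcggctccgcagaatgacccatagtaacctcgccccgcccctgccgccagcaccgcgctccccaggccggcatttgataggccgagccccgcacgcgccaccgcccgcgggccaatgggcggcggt
A match in these letters is a description of the window, and none of the 6 genes with one passed the test between genotypes. Since only 1 of the 44 genes passed, that count says nothing of the motif.

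*Gpr180* itself was at 4.46 to 9.24 FPKM (median 7.29) in the 9 wild-type livers and at 0.876 to 1.99 FPKM (median 1.79) in the 9 *Gpr180*KO livers, without overlap, with a difference of -1.998 on the log2 scale (SE 0.18, adjusted p = 4.7e-06). The libraries carry 2 styles of title, which split each genotype into 4 mice (title series 1) and 5 mice (title series 2). The labels do not say what the styles stand for. FPKM summed to between 503229 and 555800 in 17 libraries and to 718624 in the library KO5 of title series 2, whose median correlation with the other libraries was also the lowest (0.920, against 0.948 or more). Read counts per library are not in the tables, which hold FPKM only, and the study's methods give only an approximate range of reads for all samples. The comparison between genotypes was therefore repeated without KO5.

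Between genotypes, 1 of the 44 genes passed the test, *Acsl3*, which fell in *Gpr180*KO livers, and none was called higher. Differences were tested with limma on the log2(FPKM + 0.1) scale, and p-values of the 10835 genes were adjusted together by Benjamini-Hochberg, with a threshold of 0.05. Across all genes it called 4.28% lower and 0.452% higher in *Gpr180*KO, and under median-of-ratios scaling, described with the group median, 1.58% lower. At an unadjusted p under 0.05, 7 of the 44 genes were lower (19.6% of all genes) and 2 were higher (2.54% of all genes). The 7 were *Acsl3*, *Acsl4*, *Acsl5*, *Pex11a*, *Acot3*, *Acot4* and *Pdk4*, and the 2 were *Etfa* and *Acot1*. In none of the 44 genes did the 2 genotypes separate without overlap, which 0.231% of all genes did. For 37 of the 44 genes the 95% interval of the difference lay within 1.5-fold in either direction (70.7% of all genes), and for 41 within 2-fold. The intervals that reached past 1.5-fold were those of *Acsl3*, *Acsl4*, *Pex11a*, *Acot1*, *Acot3*, *Acot4* and *Pdk4*.

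The direction of the genes as a group depended on the scaling. Their median log2 difference was -0.04 with FPKM as deposited, where the median over all genes was -0.13 and 76.9% of all genes had a lower *Gpr180*KO mean. In that scale 29 of the 44 genes had a lower and 15 a higher *Gpr180*KO mean. Median-of-ratios scaling, which divides each library by the median, over genes, of its ratio to the geometric mean of the gene, moved the median of all genes to -0.01 and that of the 44 genes to 0.08, with 34.1% of the 44 below 0. Measured from the all-gene median, the 44 genes stood 0.08 higher in the first scale and 0.09 higher in the second, and 0.05 higher without KO5. *Acsl3* remained the single call under median-of-ratios scaling (-0.54, adjusted p = 0.042), in which 1.58% of all genes were called lower and 1.03% higher. At an unadjusted p under 0.05 in that scale, 4 of the 44 genes were lower (9.4% of all genes) and 7 were higher (8.02% of all genes). The mean of log2(FPKM + 0.1) over the 44 genes was 6.70 ± 0.15 (SD, n = 9) in wild-type and 6.59 ± 0.16 (SD, n = 9) in *Gpr180*KO livers, a difference smaller than an SD that includes the split between title series. Within title series 1 this mean ran from 6.82 to 6.86 in wild-type and from 6.73 to 6.78 in *Gpr180*KO livers, without overlap, and within title series 2 from 6.51 to 6.71 and from 6.35 to 6.57, with overlap. These means are given only in the deposited scale, in which 76.9% of all genes had a lower *Gpr180*KO mean.

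**Figure D1:**
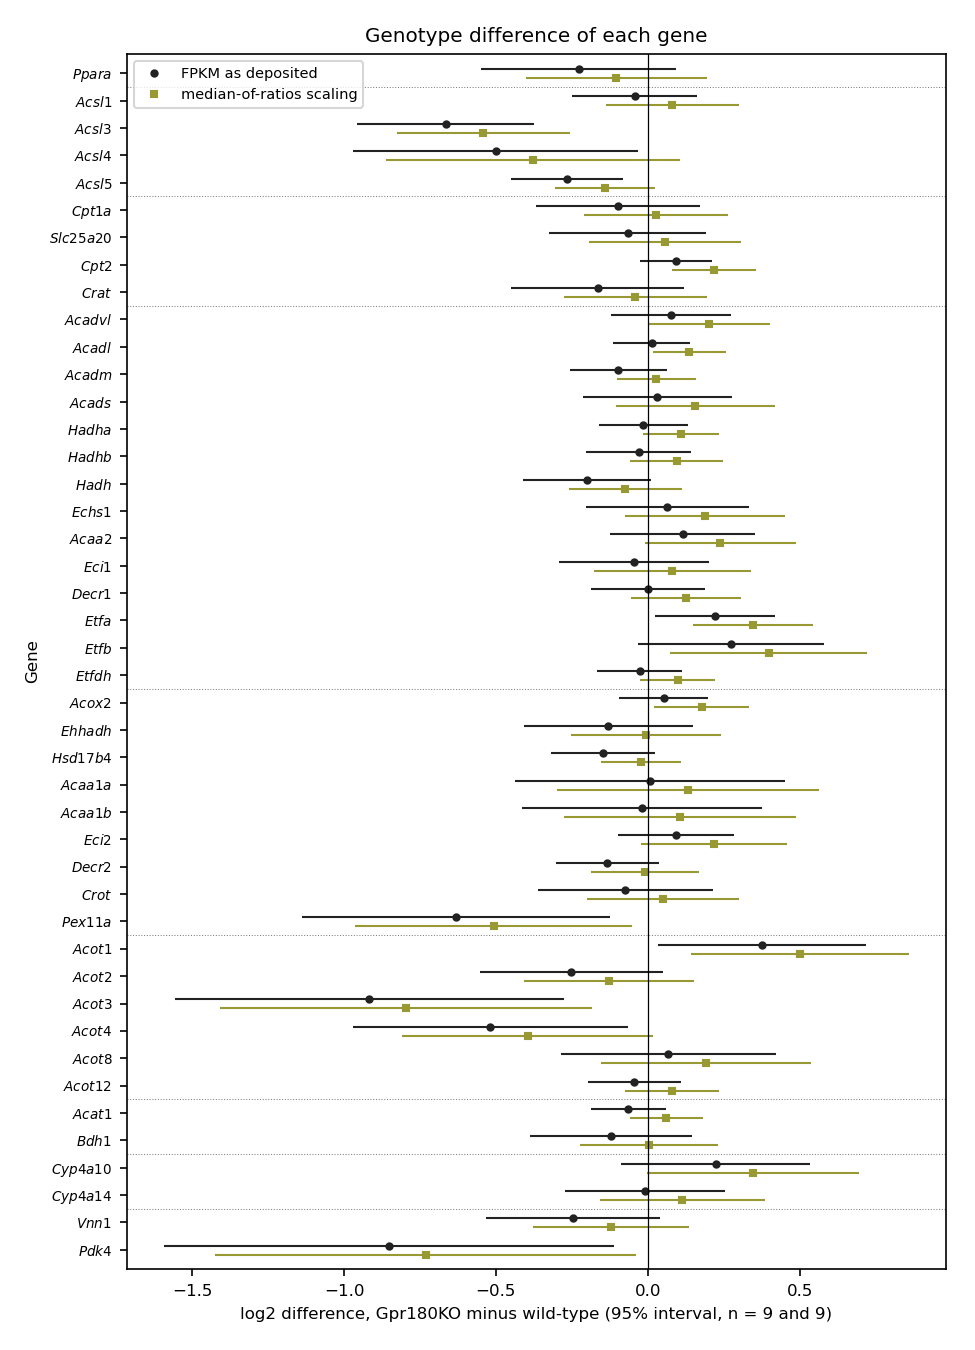
Difference of each of the 44 genes between 9 *Gpr180*KO and 9 wild-type livers on the log2(FPKM + 0.1) scale (x axis) with its 95% interval, for FPKM as deposited (circles) and after median-of-ratios scaling (squares), with dotted lines between roles. *Acsl3* at -0.66 is the single gene called, and most intervals of the mitochondrial genes are short and include 0 in the deposited scale.

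**Figure D2:**
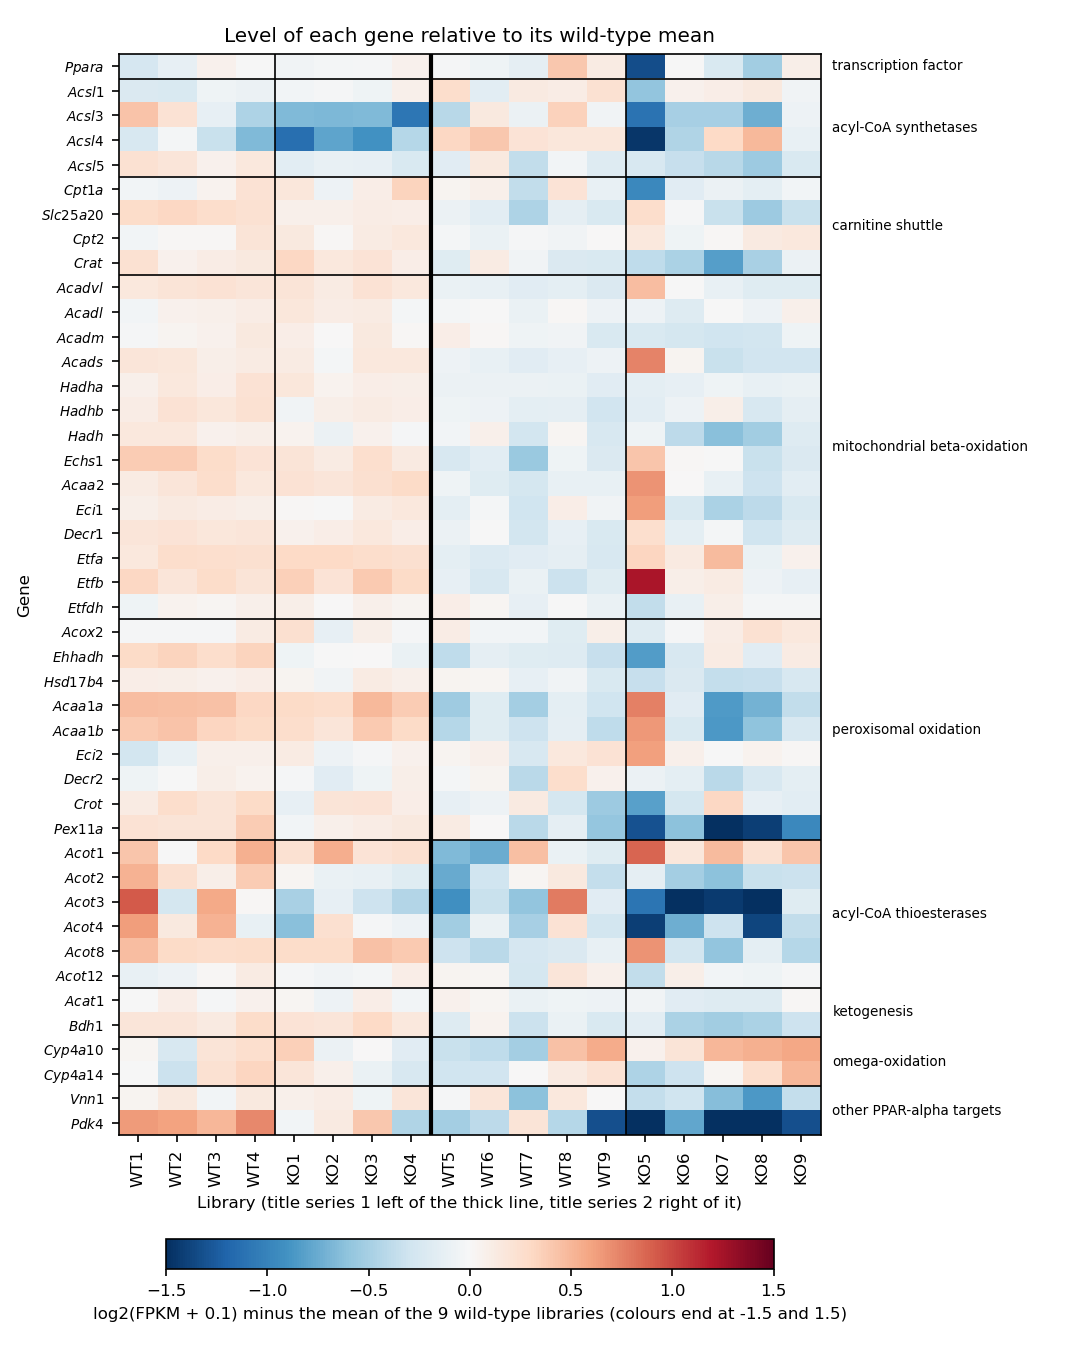
Heat map of the 44 genes (rows, by role) in the 18 livers (columns), as log2(FPKM + 0.1) minus the mean of the wild-type livers of that gene, with title series 1 to the left of the thick line and title series 2 to the right. Many rows turn from red to blue at the thick line in both genotypes, and the KO5 column departs in both directions.

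Of the 4 acyl-CoA synthetases 1 fell in *Gpr180*KO livers and 3 did not pass the test. Each of the 4 had a *Gpr180*KO mean below wild-type in the deposited scale, while the sign of *Acsl1* turned positive under median-of-ratios scaling. These enzymes attach coenzyme A to long-chain fatty acids, the step before either oxidation or storage. *Acsl3* (chromosome 1, 78657825 to 78707743), an isoform found on the endoplasmic reticulum and on lipid droplets, was at 11.7 to 21.7 FPKM (median 15.5) in the 9 wild-type livers and at 7.42 to 15.2 FPKM (median 10.1) in the 9 *Gpr180*KO livers. In 8 of 9 *Gpr180*KO livers it lay below the lowest wild-type liver, and KO9 was the exception. The fall was -0.66 on the log2 scale (SE 0.14, adjusted p = 0.016), a ratio of 0.631 with a 95% interval of 0.515 to 0.772. Within title series 1 it ran from 11.7 to 21.7 FPKM in wild-type and from 7.56 to 10.2 FPKM in *Gpr180*KO livers, without overlap, and the difference was -0.78 (adjusted p = 0.049). Within title series 2 the ranges were 12.04 to 20.5 FPKM and 7.42 to 15.2 FPKM, with overlap, and the difference of -0.57 did not pass (adjusted p = 0.18), in a series where no gene of the 10835 did. Without KO5 the difference was -0.61 (adjusted p = 0.018). *Acsl3* was called in all 18 fits that left out 1 library, at adjusted p from 0.010 to 0.042. Some of these fits were thus close to the threshold.

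Of the other synthetases, *Acsl5*, of mitochondria and the endoplasmic reticulum, was at 190.3 to 289 FPKM (median 259) in wild-type and 169 to 228 FPKM (median 209.7) in *Gpr180*KO livers. Every *Gpr180*KO liver (9 of 9) was below the wild-type median, and 2 were below the lowest wild-type liver. Its difference of -0.27 on the log2 scale (SE 0.09, adjusted p = 0.084) missed the threshold, but passed with title series as a block in the fit, as given below. *Acsl4*, which prefers arachidonic acid, was at 10.8 to 22.9 FPKM (median 19.3) in wild-type and 6.20 to 24.1 FPKM (median 12.5) in *Gpr180*KO livers, with a difference of -0.50 (SE 0.22, adjusted p = 0.20), and its lowest value was that of KO5. *Acsl1*, the main synthetase of liver, had nearly the same level in both genotypes, 281 to 396 FPKM (median 315) in wild-type and 217 to 363 FPKM (median 324) in *Gpr180*KO livers, with a difference of -0.04 (SE 0.10, adjusted p = 0.81). On the FPKM scale *Acsl1* and *Acsl5* had means over the 18 livers of 326 and 227, against 13.4 for *Acsl3* and 15.5 for *Acsl4*. The synthetase that passed the test thus had the lowest level of the 4.

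Some markers of other liver cells moved with genotype beside *Acsl3*. None of the 5 endothelial markers was called, at summed FPKM of 66.5 to 112 in wild-type and 61.5 to 101 in *Gpr180*KO livers. Of 6 stellate cell and fibroblast markers, 4 fell in *Gpr180*KO (*Col1a1*, *Col3a1*, *Pdgfrb* and *Dcn*), while *Lrat* and *Des* were not called. The summed FPKM of the 6 was 133 to 264 in wild-type and 74.1 to 129.7 in *Gpr180*KO livers, without overlap. *Dcn*, which adds most to that sum, was at 116 to 196 and 63.8 to 103 FPKM, also without overlap. Of 7 macrophage markers, 2 fell (*Cd68* and *Gpnmb*, the latter not called under median-of-ratios scaling), with sums of 115 to 287 and 131 to 203. The rest were not called and differed in sign. *Adgre1* (-0.29), *Csf1r* (-0.14) and *Lyz2* (-0.56) had negative log2 differences, *Clec4f* (0.16) and *Cd163* (0.25) positive ones. None of the 7 hepatocyte markers tested was called, at sums of 14250.0 to 19325 and 16987 to 29706, and none was at 0. The sum of 29706 was that of KO5, against a *Gpr180*KO median of 17956. In bulk tissue, fewer cells of a type and less RNA per cell cannot be told apart, and the part of these cells in the *Acsl3* difference was not tested.

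**Figure D3:**
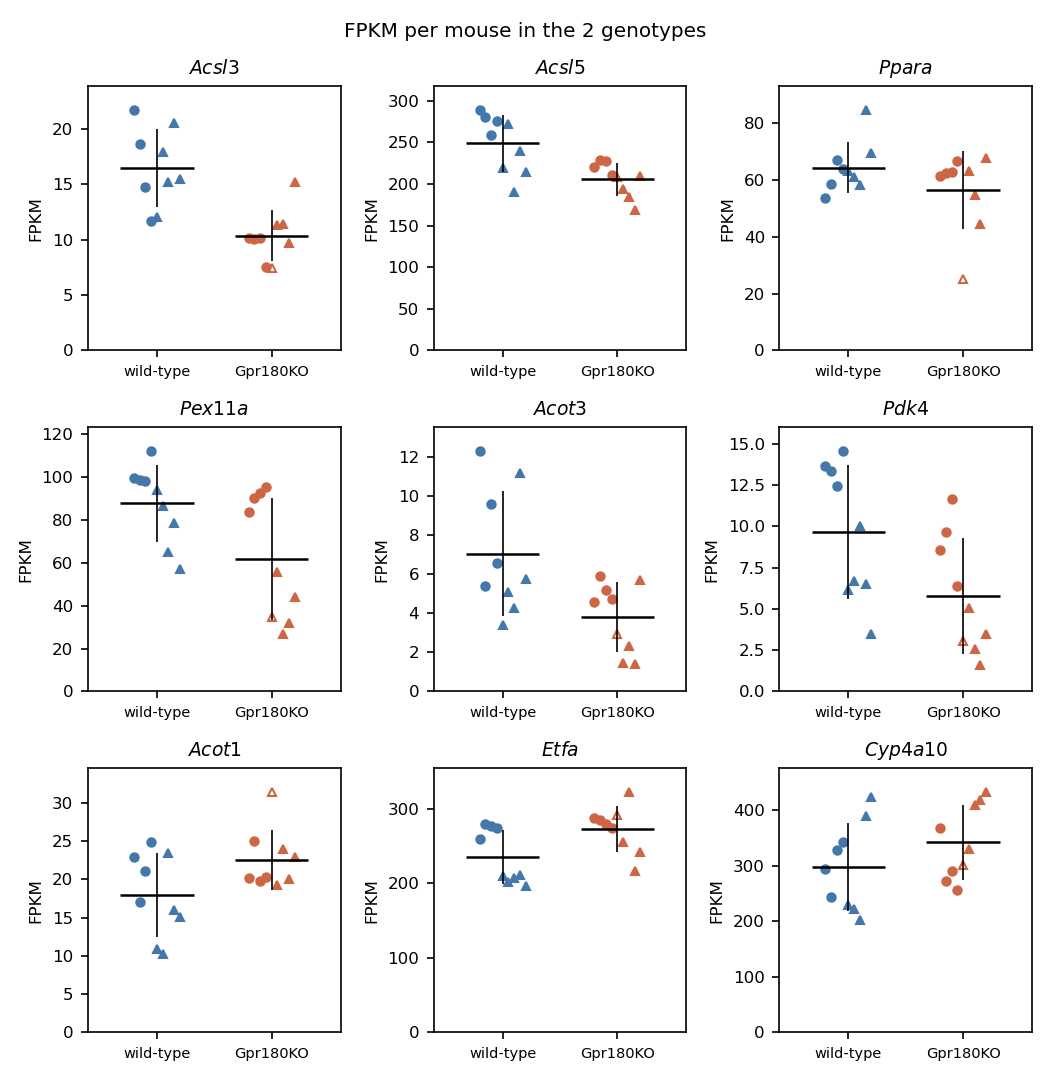
FPKM of 9 genes in each liver by genotype, with circles for title series 1, triangles for title series 2, an open triangle for KO5, and the mean ± SD as black lines (n = 9 per genotype). The *Acsl3* points of *Gpr180*KO lie below those of wild-type except for 1 triangle, and for *Pex11a*, *Pdk4* and *Etfa* the wild-type circles lie above the wild-type triangles.

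*Ppara* did not pass the test. It was at 53.5 to 84.5 FPKM (median 62.9) in wild-type and at 25.2 to 67.6 FPKM (median 62.5) in *Gpr180*KO livers. The medians nearly coincided, and the low end of the *Gpr180*KO range was KO5, which lay apart from the next liver of its genotype. The difference was -0.23 on the log2 scale (SE 0.15, adjusted p = 0.39) with KO5 and -0.09 (adjusted p = 0.59) without it. In title series 1, where KO5 is absent, the *Ppara* ranges were 53.5 to 66.8 FPKM and 61.4 to 66.6 FPKM. In title series 2 they were 58.2 to 84.5 FPKM and 25.2 to 67.6 FPKM, with a difference of -0.46 (adjusted p = 0.33). There KO8, at 44.3 FPKM, also lay below the lowest wild-type liver.

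The 4 genes of the carnitine shuttle did not pass the test, with differences from -0.17 to 0.09. *Cpt1a*, the gate of mitochondrial entry that malonyl-CoA inhibits, was at 125 to 189 FPKM (median 167) in wild-type and 82.9 to 204 FPKM (median 154) in *Gpr180*KO livers. The genotypes overlapped almost fully and the difference was -0.10 (SE 0.13, adjusted p = 0.66), or 0.01 without KO5, which held the lowest value. *Cpt2*, which returns the acyl group to coenzyme A inside the mitochondrion, was at 81.5 to 99.6 FPKM (median 86.2) in wild-type and 83.1 to 97.2 FPKM (median 95.7) in *Gpr180*KO livers. In 8 of 9 *Gpr180*KO livers it was above the wild-type median, with a difference of 0.09 (SE 0.06, adjusted p = 0.34) that passed in 1 alternative fit, given with the title series. *Slc25a20*, the carnitine carrier, and *Crat*, carnitine acetyltransferase, differed by -0.07 and -0.17.

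Mitochondrial beta-oxidation was the largest role, with 14 genes, and none passed the test in either direction. Of these, 6 had a lower and 8 a higher *Gpr180*KO mean, the median difference was 0.01, and the range ran from -0.20 (*Hadh*) to 0.27 (*Etfb*). Their mean of log2(FPKM + 0.1) was 7.56 ± 0.15 (SD, n = 9) in wild-type and 7.58 ± 0.17 (SD, n = 9) in *Gpr180*KO livers. *Hadha*, the alpha subunit of the trifunctional protein, was at 104 to 137 FPKM (median 111) in wild-type and 106 to 133 FPKM (median 112) in *Gpr180*KO livers, with a difference of -0.01 (SE 0.07, adjusted p = 0.91). The values of the 2 genotypes covered nearly the same range. *Acadm*, the medium-chain acyl-CoA dehydrogenase, was at 204 to 263 FPKM (median 242) in wild-type and 194 to 263 FPKM (median 228) in *Gpr180*KO livers, with a difference of -0.10 (SE 0.08, adjusted p = 0.46). *Acadl*, the long-chain enzyme, was at 141 to 163 FPKM (median 149.9) in wild-type and 132 to 170.2 FPKM (median 151) in *Gpr180*KO livers, with a difference of 0.01 (SE 0.06, adjusted p = 0.92). For each of these 3 enzymes the 95% interval stayed within 1.5-fold.

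*Etfa*, a subunit of the electron transfer flavoprotein that takes electrons from the dehydrogenases, had the lowest adjusted p of the 14. It was at 196 to 279 FPKM (median 211) in wild-type and 217 to 323 FPKM (median 279.6) in *Gpr180*KO livers. All 9 *Gpr180*KO livers were above the wild-type median and 5 were above the highest wild-type liver, yet the difference of 0.22 on the log2 scale (SE 0.09, adjusted p = 0.18) did not pass. With title series as a block and median-of-ratios scaling together *Etfa* was called, as given below. In title series 2 the ranges were 196 to 211 FPKM in wild-type and 217 to 323 FPKM in *Gpr180*KO livers, without overlap, whereas in title series 1 they were 260.0 to 279 FPKM and 274 to 287 FPKM. Its partner *Etfb* had a difference of 0.27 (SE 0.15, adjusted p = 0.28), in which KO5 stood at 568 FPKM, far above the *Gpr180*KO median of 281 FPKM, and without KO5 the difference was 0.15. *Etfdh*, which passes the electrons on to ubiquinone, differed by -0.03.

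The 9 genes of peroxisomal oxidation did not pass either, with 6 lower and 3 higher *Gpr180*KO means and a median difference of -0.07. Their mean of log2(FPKM + 0.1) was 7.72 ± 0.18 (SD, n = 9) in wild-type and 7.61 ± 0.21 (SD, n = 9) in *Gpr180*KO livers. *Ehhadh*, the bifunctional enzyme and a classic PPAR-alpha target, was at 152 to 249.7 FPKM (median 181) in wild-type and 111 to 216 FPKM (median 189) in *Gpr180*KO livers, with a difference of -0.13 (SE 0.13, adjusted p = 0.57), or -0.04 without KO5. Its wild-type livers fell into a high and a low set by title series, from 238 to 249.7 FPKM in series 1 and from 152 to 181 FPKM in series 2. *Acaa1b*, a peroxisomal thiolase, was at 869 to 1566 FPKM (median 1059) in wild-type and 641 to 1823 FPKM (median 1317) in *Gpr180*KO livers, with a difference of -0.02 (SE 0.19, adjusted p = 0.96). *Acaa1a* was at 185 to 369.9 FPKM (median 242) in wild-type and 148 to 454 FPKM (median 321) in *Gpr180*KO livers, with a difference of 0.01 (SE 0.21, adjusted p = 0.99), or -0.09 without KO5. The thiolases share 27.3% and 37.8% of the 75-base windows of *Acaa1a* and *Acaa1b*, mostly with each other, so reads could be split between them and their single values are uncertain. *Crot*, which makes carnitine esters for export from peroxisomes, was at 215 to 382 FPKM (median 342) in wild-type and 178 to 388 FPKM (median 286) in *Gpr180*KO livers, with a difference of -0.07 (SE 0.14, adjusted p = 0.77), or 0.02 without KO5. *Acox2*, the oxidase of branched chains and bile acid precursors, was at 88.7 to 109.6 FPKM (median 99.1) in wild-type and 87.97 to 119 FPKM (median 107) in *Gpr180*KO livers, with a difference of 0.05 (SE 0.07, adjusted p = 0.67).

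*Pex11a*, which promotes division of peroxisomes, had the largest difference of the peroxisomal set. It was at 57.3 to 112 FPKM (median 93.9) in wild-type and 27 to 95.2 FPKM (median 55.9) in *Gpr180*KO livers. Of the *Gpr180*KO livers, 5 were below the lowest wild-type liver, and all 5 belonged to title series 2. The difference of -0.63 on the log2 scale (SE 0.24, adjusted p = 0.13) did not pass, but did with title series as a block in the fit, as given below. In title series 1 the ranges were 98.3 to 112 FPKM and 83.5 to 95.2 FPKM, and in title series 2 they were 57.3 to 93.9 FPKM and 27 to 55.9 FPKM, so that the genotypes were apart within each series while they overlapped across them. The difference between genotypes was -0.17 in series 1 and -0.998 in series 2, and the interaction of -0.82 (SE 0.25) did not pass after adjustment (adjusted p = 0.58).

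Acyl-CoA thioesterases, which release the fatty acid from coenzyme A, spread more widely than the other roles, from -0.92 (*Acot3*) to 0.38 (*Acot1*), and none of the 6 passed. *Acot1*, *Acot2*, *Acot3* and *Acot4* lie next to each other on chromosome 12 (*Acot2* from 83987861, *Acot1* from 84009502, *Acot4* from 84038379 and *Acot3* from 84052151). *Acot3*, a peroxisomal isoform, was at 3.38 to 12.3 FPKM (median 5.74) in wild-type and 1.43 to 5.93 FPKM (median 4.58) in *Gpr180*KO livers. In 4 *Gpr180*KO livers it was below the lowest wild-type liver, and the difference was -0.92 on the log2 scale (SE 0.31, adjusted p = 0.086). Only with title series as a block in the fit was *Acot3* called, as given below. *Acot4*, also peroxisomal, was at 10.5 to 23.4 FPKM (median 14.1) in wild-type and 5.64 to 17.8 FPKM (median 11.7) in *Gpr180*KO livers, with a difference of -0.52 (SE 0.22, adjusted p = 0.17). *Acot2*, the mitochondrial isoform, was at 4.93 to 12.04 FPKM (median 8.95) in wild-type and 5.43 to 8.54 FPKM (median 7.41) in *Gpr180*KO livers, with a difference of -0.25 (SE 0.14, adjusted p = 0.31). Every *Gpr180*KO liver (9 of 9) was below the wild-type median of *Acot2*. *Acot1*, the cytosolic isoform, had the opposite sign, at 10.2 to 24.9 FPKM (median 17.1) in wild-type and 19.3 to 31.4 FPKM (median 20.4) in *Gpr180*KO livers, with all 9 *Gpr180*KO livers above the wild-type median and a difference of 0.38 (SE 0.16, adjusted p = 0.18). *Acot1* and *Acot2* share 26.4% and 21.2% of their 75-base windows with other transcripts, mostly with each other, so reads could be split between them and their single values are uncertain.

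Of the 2 ketogenesis genes, *Acat1*, the mitochondrial acetoacetyl-CoA thiolase, was at 183 to 209 FPKM (median 194) in wild-type and 171 to 209 FPKM (median 189.6) in *Gpr180*KO livers, with a difference of -0.06 (SE 0.06, adjusted p = 0.53). *Bdh1*, which forms 3-hydroxybutyrate, was at 109 to 165 FPKM (median 141) in wild-type and 94.5 to 167 FPKM (median 122) in *Gpr180*KO livers, with a difference of -0.12 (SE 0.13, adjusted p = 0.58). Neither passed the test, and the signs of both turned positive under median-of-ratios scaling, at 0.06 and 0.00298. *Cyp4a10* and *Cyp4a14*, the omega-hydroxylases that respond strongly to PPAR-alpha ligands, did not pass the test. *Cyp4a10* was at 203 to 424 FPKM (median 293) in wild-type and 256 to 433 FPKM (median 331) in *Gpr180*KO livers, with a difference of 0.22 (SE 0.15, adjusted p = 0.39). *Cyp4a14* was at 402 to 627 FPKM (median 503) in wild-type and 363 to 704 FPKM (median 511) in *Gpr180*KO livers, with a difference of -0.01 (SE 0.13, adjusted p = 0.97). Reads of *Cyp4a10* may be shared with *Cyp4a32*, since 19.1% of its 75-base windows occur in other transcripts.

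Outside the oxidation enzymes, *Pdk4*, the kinase that switches off pyruvate dehydrogenase when fatty acids are burned, was at 3.47 to 14.6 FPKM (median 10.02) in wild-type and 1.60 to 11.6 FPKM (median 5.06) in *Gpr180*KO livers. In 8 of 9 *Gpr180*KO livers it was below the wild-type median, and the difference of -0.85 on the log2 scale (SE 0.35, adjusted p = 0.17) did not pass. *Pdk4* was called with title series as a block in the fit, as given below. Its 95% interval ran from a ratio of 0.332 to 0.925, the lowest lower bound of the 44 genes. *Vnn1*, a pantetheinase and PPAR-alpha target, was at 51.7 to 89.97 FPKM (median 81.7) in wild-type and 43.6 to 90 FPKM (median 64.2) in *Gpr180*KO livers, with a difference of -0.25 (SE 0.14, adjusted p = 0.30).

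More of the 44 genes were called between the 2 title series than between genotypes. With genotype in the fit, a comparison added after the data were seen, 24 of the 44 genes were lower in title series 2 and 1, *Acsl4*, was higher. Genotype in that same fit called 5 of the 44 genes lower (9.52% of all genes) and 0 higher (1.13% of all genes). Across all genes 19.1% were lower and 3.78% higher in series 2. The median difference of the 44 genes was -0.25 (series 2 minus series 1), against -0.11 over all genes. By role, 8 of 14 mitochondrial genes, 6 of 9 peroxisomal genes, 4 of 6 thioesterases, 2 of 4 shuttle genes, both *Vnn1* and *Pdk4*, 1 of 4 synthetases and 1 of 2 ketogenesis genes were lower. *Pdk4* differed most, at -1.33 (SE 0.20, adjusted p = 0.00037), followed by *Pex11a* at -0.86, *Acot3* at -0.80 and *Acaa1a* at -0.68. *Bdh1* stood at -0.47 (adjusted p = 0.00032). In the wild-type livers, *Pdk4* was at 12.4 to 14.6 FPKM in series 1 and at 3.47 to 10.02 FPKM in series 2. In the *Gpr180*KO livers it was at 6.41 to 11.6 FPKM and 1.60 to 5.06 FPKM, so both genotypes were lower in series 2 with no overlap between series.

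The same split showed in the ranges of the libraries. Among wild-type livers alone, 18 of the 44 genes had every series 2 value below every series 1 value (13.2% of all genes) and 1 gene, *Acsl4*, had the reverse (8.07% of all genes). Among *Gpr180*KO livers, 9 of the 44 genes were separated downward (13% of all genes), and *Hadha*, *Hsd17b4*, *Pex11a*, *Bdh1* and *Pdk4* were separated in both genotypes. The count moved with scaling and with KO5. Under median-of-ratios scaling 8 of the 44 genes were lower in series 2 (9.04% of all genes) and 1 was higher (8.03% of all genes). Without KO5 29 were lower (30.4% of all genes) and 2 were higher (11.6% of all genes). *Pdk4*, *Pex11a*, *Acaa1a*, *Acaa1b*, *Acot4*, *Acot8*, *Bdh1* and *Crat* were the 8 called lower under median-of-ratios scaling. All 5 endothelial markers were also lower in series 2, with summed FPKM of 97.5 to 112 in series 1 and 61.5 to 79.7 in series 2, and so were 2 of 7 hepatocyte markers (*Ttr* and *Asgr1*), 3 of 7 macrophage markers (*Csf1r*, *Clec4f* and *Gpnmb*), 3 of 6 stellate cell and fibroblast markers (*Col3a1*, *Des* and *Pdgfrb*) and 2 of 8 fasting genes (*Fgf21* and *Cdkn1a*). *Cfd*, *Sox9* and *Per1* were higher in series 2. The part of these markers in the difference of the 24 genes was not tested.

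**Figure D4:**
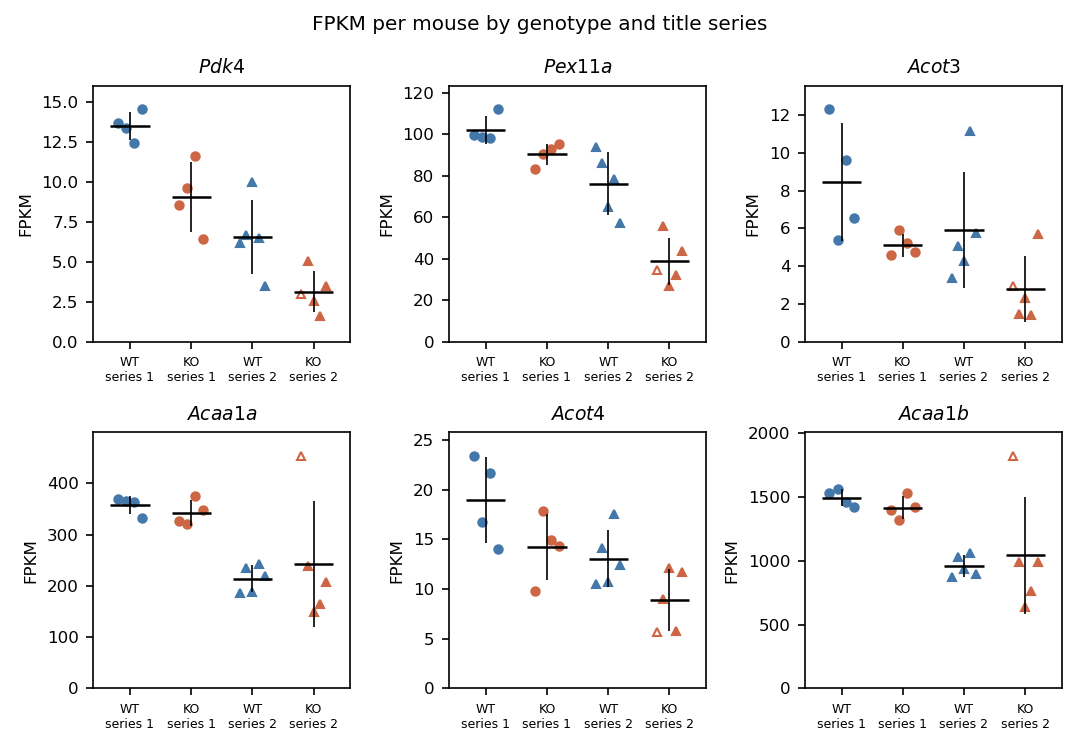
FPKM of the 6 genes with the lowest series 2 minus series 1 difference, in wild-type (WT) and *Gpr180*KO (KO) livers of title series 1 (circles, n = 4 per genotype) and title series 2 (triangles, n = 5 per genotype), with the mean ± SD as black lines and KO5 as an open triangle. The mean of *Pdk4* is lower in each group than in the one to its left, and the wild-type points of *Acaa1a* and *Acaa1b* are lower in series 2 without overlap.

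Within the series, the genotypes were compared again. In title series 1, 9 of the 44 genes had every *Gpr180*KO value below every wild-type value (11.5% of all genes) and none had the reverse (3.29% of all genes). The 9 were *Acsl3*, *Acsl5*, *Slc25a20*, *Hadh*, *Decr1*, *Ehhadh*, *Pex11a*, *Acot2* and *Pdk4*. In a fit of title series 1 alone, 5 of the 44 genes were lower (4.5% of all genes) and none was higher (0.831% of all genes). Besides *Acsl3* these were *Ehhadh* (-0.35, adjusted p = 0.018), *Acsl5* (-0.32, adjusted p = 0.027), *Slc25a20* (-0.18, adjusted p = 0.038) and *Acot2* (-0.40, adjusted p = 0.048). *Ehhadh* was at 238 to 249.7 FPKM in the 4 wild-type and at 184 to 199 FPKM in the 4 *Gpr180*KO livers of that series, and at 152 to 181 FPKM and 111 to 216 FPKM in series 2. The low end of the last range was KO5, without which it ran from 167 to 216 FPKM. In title series 2, *Pex11a* alone was separated downward (5.5% of all genes) and *Etfa* alone upward (0.545% of all genes). A fit of title series 2 called none of the 44 genes. At an unadjusted p under 0.05 it had 9 of them lower (16.5% of all genes) and 2 higher (2.18% of all genes).

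The difference between series was tested as an interaction in limma, which called 0 of the 44 genes and 0% of all genes. At an unadjusted p under 0.05, 5 of the 44 genes had an interaction (7.69% of all genes), namely *Crat*, *Etfa*, *Pex11a*, *Acot1* and *Vnn1*. Weights per library, estimated anew for the interaction, made it 2 (0.415% of all genes), *Ehhadh* at 0.53 (adjusted p = 0.040) and *Pex11a* at -0.89 (adjusted p = 0.042). The weights of the genotype fit were lowest for KO5. With title series as a block in the genotype fit, 5 of the 44 genes were lower (9.52% of all genes) and none was higher (1.13% of all genes). Beside *Acsl3* these were *Pdk4* (adjusted p = 0.012), *Pex11a* (adjusted p = 0.014), *Acsl5* (adjusted p = 0.018) and *Acot3* (adjusted p = 0.028), with the same differences as given above. Block and median-of-ratios scaling together left 3 lower (3.6% of all genes), *Acsl3*, *Pex11a* and *Pdk4*, and 2 higher (2.29% of all genes), *Etfa* at 0.35 (adjusted p = 0.027) and *Cpt2* at 0.22 (adjusted p = 0.048).

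The library KO5 held the lowest of the 18 values for 12 of the 44 genes and the highest for another 12, which makes 24 of 44, and it held the lowest or the highest value for 55.8% of all genes. Its deviation from the median of the other *Gpr180*KO livers of title series 2 followed transcript length. The longest coding transcripts of the 44 genes ranged from 893 bases (*Etfb*) to 6203 bases (*Acot4*). For the 25 genes under 2500 bases the median deviation was 0.39, and for the 19 longer ones it was -0.32. *Etfb* stood 1.22 above and *Acads* 1.04 above, whereas *Acsl4* stood at -1.55, *Ppara* at -1.22 and *Cpt1a* at -0.85. Across the 44 genes Spearman's rho between deviation and length was -0.68, and over 9885 tested genes it was -0.72. The points share that 1 library and are genes, not replicates. The other 17 libraries gave rho from -0.22 to 0.47 over the 44 genes and from -0.22 to 0.22 over all tested genes. Without KO5 the sign of the difference turned for 10 of the 44 genes (12.5% of all genes), namely *Acsl1*, *Cpt1a*, *Acads*, *Hadha*, *Decr1*, *Etfdh*, *Acaa1a*, *Crot*, *Acot8* and *Cyp4a14*, each of which differed by at most 0.10 with KO5 and 0.09 without it. The lowest *Gpr180*KO value of *Ppara*, *Acsl1*, *Cpt1a* and *Ehhadh* and the highest of *Etfb*, *Acads* and *Eci2* came from KO5. For *Ppara*, KO8 also lay below the lowest wild-type liver, and for *Etfb*, KO1 and KO3 also lay above the highest.

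**Figure D5:**
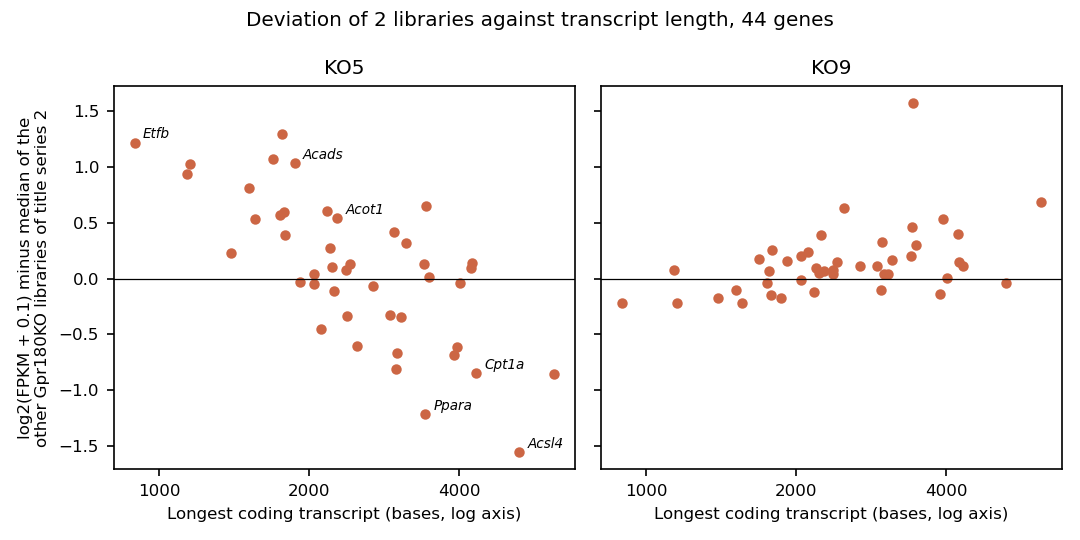
Deviation of the libraries KO5 and KO9 from the median of the other *Gpr180*KO libraries of title series 2, in log2(FPKM + 0.1), against the longest coding transcript of each of the 44 genes (x axis in bases, log scale). The deviation falls with length in KO5, with exceptions at both ends (rho -0.68), while KO9 has no such fall with length (rho 0.47).

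Among 52 other genes of the same pathways, listed apart from the 44, 50 were tested, 1 fell and 4 rose in *Gpr180*KO livers, beside 4.28% and 0.452% of all genes. *Cyp4f14* had a failed estimate and *Acot5* was below the FPKM minimum. All 4 that rose belonged to the 16 other peroxisomal genes. *Amacr*, the racemase of branched-chain and bile acid precursors, was at 41.8 to 48.3 FPKM (median 44.7) in wild-type and 49.6 to 74.3 FPKM (median 53.3) in *Gpr180*KO livers, without overlap, and rose by 0.32 on the log2 scale (SE 0.08, adjusted p = 0.028). *Slc27a2*, a very long-chain acyl-CoA synthetase, was at 495 to 648 FPKM (median 555) in wild-type and 621 to 707 FPKM (median 665) in *Gpr180*KO livers, with 7 *Gpr180*KO livers above the highest wild-type liver, and rose by 0.27 (SE 0.07, adjusted p = 0.034). *Ephx2*, the soluble epoxide hydrolase, was at 362 to 474 FPKM (median 413) in wild-type and 409 to 611 FPKM (median 520.2) in *Gpr180*KO livers and rose by 0.32 (SE 0.08, adjusted p = 0.036). *Phyh*, the first enzyme of alpha-oxidation of phytanic acid, was at 1014 to 1328 FPKM (median 1107) in wild-type and 1207 to 1622 FPKM (median 1366) in *Gpr180*KO livers and rose by 0.27 (SE 0.07, adjusted p = 0.040). These 4 passed under median-of-ratios scaling and without KO5 too. They were close to the threshold, since leaving out 1 library at a time kept the call of *Amacr* in 14, of *Slc27a2* in 12, of *Ephx2* in 9 and of *Phyh* in 5 of 18 fits. *Ucp2*, a mitochondrial carrier, was at 6.81 to 19.5 FPKM (median 11.02) in wild-type and 3.88 to 10.4 FPKM (median 8.01) in *Gpr180*KO livers and fell by 0.78 on the log2 scale (SE 0.20, adjusted p = 0.036), a call kept in 10 of 18 such fits and not under median-of-ratios scaling (adjusted p = 0.062).

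*Rxra*, *Ppargc1a*, *Fgf21* and *Pparg*, all outside the 44, did not pass. The PPAR-alpha partner *Rxra* differed by -0.02 (SE 0.10, adjusted p = 0.94), with opposite signs in the title series. In series 1 it was at 60.8 to 67.3 FPKM in wild-type and 75.4 to 87.2 FPKM in *Gpr180*KO livers, without overlap (difference 0.31, adjusted p = 0.034), and in series 2 the difference was -0.28 (adjusted p = 0.28), while the interaction had an adjusted p of 0.58. The coactivator *Ppargc1a* differed by 0.02 (SE 0.23, adjusted p = 0.97). *Fgf21*, a hormone induced by PPAR-alpha, was at 9.32 to 19.1 FPKM (median 15.8) in wild-type and 3.19 to 19.1 FPKM (median 10.5) in *Gpr180*KO livers, with a difference of -0.61 (SE 0.28, adjusted p = 0.20), which was -0.04 in title series 1 and -1.07 in title series 2. *Pparg*, the adipogenic relative of *Ppara*, was at 10.1 to 28.2 FPKM (median 16.3) in wild-type and 2.37 to 17.5 FPKM (median 13.4) in *Gpr180*KO livers, with a difference of -0.57 (SE 0.29, adjusted p = 0.25). *Fgf21* is 1 of 7 genes listed as further PPAR-alpha targets, with *Angptl4*, *Cpt1b*, *Acot5*, *Cidea*, *Cidec* and *Mogat1*. Of these, 6 were tested and none was called. Their median difference was -0.73, or -0.62 under median-of-ratios scaling, the lowest of the groups of other pathway genes. *Cidec*, a lipid droplet protein, was at 17.1 to 75.7 FPKM (median 60.4) in wild-type and 1.65 to 59.1 FPKM (median 36.5) in *Gpr180*KO livers, with 9 of 9 *Gpr180*KO livers below the wild-type median and a difference of -1.12 (SE 0.53, adjusted p = 0.22). *Mogat1*, which makes diacylglycerol, was at 2.82 to 16.5 FPKM (median 8.78) in wild-type and 1.26 to 8.15 FPKM (median 4.60) in *Gpr180*KO livers, again with 9 of 9 below that median, and a difference of -0.83 (SE 0.40, adjusted p = 0.22), or an adjusted p of 0.045 with title series as a block.

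Of the lists of feeding state and time of day, none of the 8 fasting genes and none of the 10 clock genes tested was called between genotypes. *Pck1*, the gluconeogenic enzyme on the fasting list, had the lowest adjusted p of that list, at 252 to 841 FPKM (median 395) in wild-type and 482 to 1079.5 FPKM (median 676) in *Gpr180*KO livers, with 9 of 9 *Gpr180*KO livers above the wild-type median. Its difference of 0.71 (SE 0.22, adjusted p = 0.061) was called with title series as a block (adjusted p = 0.027), in title series 1 alone (adjusted p = 0.033) and without KO5 (adjusted p = 0.042). On the same list *Cdkn1a* (-0.74, adjusted p = 0.36), *Fgf21* and *Igfbp1* (-0.28, adjusted p = 0.65) had negative differences and the others positive ones. *Cdkn1a* was below the wild-type median in 9 of 9 *Gpr180*KO livers and was called in title series 1 alone (adjusted p = 0.040). The median difference of the list was 0.06. The summed FPKM of the fasting list, to which *Pck1* adds most, was 495 to 1276 in wild-type and 667 to 1717 in *Gpr180*KO livers, and that of the clock list was 83.02 to 149.5 and 76.7 to 134. The adipocyte marker *Plin1* was at 0 in every library, *Adipoq* did not exceed 0.0897 FPKM and *Lep* did not exceed 0.0134 FPKM. No lymphocyte marker reached the FPKM minimum, at summed FPKM of 0.916 to 3.39 and 1.14 to 2.30. Of the 4 cholangiocyte markers 1 was tested, *Sox9*, which fell by 0.70 (adjusted p = 0.045) and was not called under median-of-ratios scaling (adjusted p = 0.12).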

How the data were processed

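Liver poly(A) RNA of 18 mice (9 wild-type, 9 *Gpr180*KO) had been sequenced by the authors as 75 bp single reads from TruSeq libraries, aligned to mm10 (GRCm38) with Illumina's TopHat Alignment application, from which they took FPKM. They deposited 1 table of gene FPKM per mouse. The version of that application and the annotation are not given in the sources used here. The upper interval ends in the deposited tables were not used, since FPKM lay above its own upper end in 501 of 792 values of the 44 genes. Read counts per library are not in these tables, so precision was read from the spread between mice.

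FPKM of rows sharing a symbol were summed. The 24 genes with a failed estimate in any library were left out, and genes with a mean of at least 1 FPKM were tested (10835). Genotypes were compared with limma 3.58.1 (R 4.3.3, trended empirical Bayes) on the log2(FPKM + 0.1) scale, with p-values of the genes tested adjusted together by Benjamini-Hochberg, a threshold of 0.05, all 18 libraries and no covariate. The title series term and the interaction came from further limma fits. Because of the added 0.1, differences of genes near 0 FPKM come out too small. The fits were also run on simulated data, whose outcome is not reported here. Transcript lengths and shared 75-base windows came from the longest coding transcript of GENCODE for GRCm38, and promoters from RefSeq. Python 3.11.15 with numpy 2.4.6, pandas 2.3.3 and matplotlib 3.10.9 was used for the rest. Nothing says whether mice shared a cage, litter or day. The p-values set each difference against the spread between these mice, each taken as independent. They could be too small if mice of a genotype shared any of these.

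Full values are given for every gene of the 44 past the threshold and for 22 genes listed for their role, with the rest by range and counts. Genes named in the text outside that rule (*Acsl4*, *Acsl5*, *Pex11a*, *Etfa*, *Etfb*, *Cidec*, *Mogat1*, *Pck1*, *Cdkn1a*, *Igfbp1*, *Dcn*) were chosen after their values were seen. Of the other pathway genes, those past the threshold and 4 further genes are given, and some others are not reported here. The members and lists were chosen with earlier results of these data known. Alternatives were another pseudocount, FPKM minimum, scaling, fit, library weighting and title series, and leaving out each library. Libraries of mice on normal diet were not analysed here.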

Additional observations from a re-analysis of the deposited data

Results flagged for a closer look

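Values that stood apart within a genotype were looked for with Dixon's test at its 95% critical value in 54 genes and both genotypes, that is in 108 groups. It marked 13, of which 12 were among the 44 genes, and chance marks about 1 group in 20. Of the 13, KO5 gave 9, WT7 gave 2, and WT4 and KO7 gave 1 each.

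KO5 was the low outlier of the *Gpr180*KO livers for *Ppara* (25.2 FPKM), *Acsl1* (217 FPKM), *Cpt1a* (82.9 FPKM), *Etfdh* (159 FPKM), *Ehhadh* (111 FPKM) and *Acot12* (33.4 FPKM). It was the high outlier for *Acads* (193 FPKM), *Etfb* (568 FPKM) and *Eci2* (203 FPKM). The 3 high genes have coding transcripts under 2500 bases. So does *Etfdh* (2377 bases) among the low genes, while the other low genes have longer ones. The deviation of KO5 from the livers of its genotype and series followed transcript length as described above. The cause was not tested.

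Among wild-type livers, WT7 was the low outlier for *Decr2* (106.9 FPKM) and *Vnn1* (51.7 FPKM), and WT4 was the high outlier for *Cpt2* (99.6 FPKM). KO7 was the low outlier for *Pparg* (2.37 FPKM).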

How the results depend on the processing

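*Acsl3* was called lower in 33 of 35 alternatives (adjusted p from 0.0021 to 1), and the exceptions were title series 2 alone and the 4 libraries that share a title number. The number of the 44 genes called lower, 1, became 2 with TPM scaling (4.95% of all genes), 2 with weights per library (10.7%), 5 in title series 1 alone (4.5%), 0 in title series 2 alone (0%), 5 with title series as a block (9.52%) and 3 with median-of-ratios scaling and the block together (3.6%), where 2 were called higher (2.29%). *Acsl5* was the second gene with TPM scaling and with weights. Leaving out 1 library gave 1 to 2 called lower (2 without WT7, again *Acsl5*, beside 4.13% of all genes) and 0 called higher, a median difference of the 44 genes of -0.07 to -0.04, 0 interactions, and a *Gpr180* difference of -2.07 to -1.90. *Gpr180* was at -1.94 (adjusted p = 0.065) in title series 2 alone, and 2 interactions were called with weights per library.

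The 513 genes called between genotypes became 837 and 238 with a mean of at least 0.1 and 5 FPKM, 283 with median-of-ratios, 282 with 75th percentile scaling, 0 in title series 2 alone, 1153 with the block and 1331 with weights. Leaving out 1 library gave 132 to 922, with over 1.5 times fewer without WT1 (167), WT2 (169), WT4 (248), WT6 (132), WT8 (337), KO6 (222), KO7 (198) or KO8 (230) and more without WT9 (922) or KO5 (778). Of the 44 genes, 24 lower in title series 2 became 8 with median-of-ratios scaling and 29 without KO5, and 1 higher became 2 without KO5. *Rxra*, not called in the report, was higher (0.31) in title series 1 alone. For the 32 named genes, 1050 of 1119 values kept their side of the threshold, and 62 lost and 6 gained a call. The sign changed in 119, of which 118 were called neither in the main fit nor in that alternative. Median-of-ratios scaling without KO5 was chosen after seeing the data. Nothing in the labels says that the numbers of the mice mark pairs, and only 2 title numbers occur in both genotypes. A fit of those 4 libraries with the number as a replicate block, also added after seeing the data, called 7 genes (9 without the block), 0 of the 44, and neither *Gpr180* (-1.93, adjusted p = 1) nor *Acsl3* (-0.38), so that it says nothing of stability. Read counts per library are not in the tables, and low genes such as *Acot3* and *Pdk4* had the widest intervals.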
